A study of Mus musculus with 9 samples.

Results

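The CXCR2 ligands and their receptor are the chemokine genes Cxcl1, Cxcl2, Cxcl3, Cxcl5 and Ppbp together with Cxcr2. They were taken from the count table by symbol, whatever their values, and are 6 of its 52550 genes. All 6 passed the filter on low counts. Transcripts were measured by sequencing in 9 libraries from the ear dermis of mice labelled C57BL/6 (C57BL/6J in the methods) and aged 8 weeks, with a wild-type genotype in every group. VAS+H2O mice had vaseline on the ear for 5 days and water by gavage for 10 days. IMQ+H2O mice had imiquimod cream for 5 days and water for 10 days, and IMQ+XYF mice had the same cream and were gavaged for 10 days with the XYF decoction, at 23.3 mg/g in a volume of 200 μl. Each group held 3 libraries. Imiquimod activates a Toll-like receptor of innate immune cells and gives a psoriasis-like inflammation, and XYF (Xiao-Yin-Fang) is a decoction of Chinese herbs.

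CXCR2 is a G protein-coupled receptor that is best known on neutrophils. Its ligands are small secreted proteins with a glutamate-leucine-arginine motif before their first cysteines, and they draw neutrophils out of the blood along a gradient. Epithelial cells, fibroblasts, macrophages and endothelium make them in response to interleukin-17, interleukin-1, tumour necrosis factor and bacterial products, through NF-kB. Their messenger RNAs are short-lived and are kept under control by RNA-binding proteins. Ppbp differs in that it is stored in the granules of platelets and becomes a CXCR2 ligand only after it is cut. In psoriasis, neutrophils gather in the skin, and the question here was which CXCR2 ligands were present in the dermis under imiquimod and whether XYF altered them.

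The 5 ligand genes lie on the plus strand of chromosome 5 (GRCm38) in a cluster of 7 chemokine genes that spans 146.6 kb. In order, the cluster holds Cxcl5 (ENSMUSG00000029371, chr5:90759360-90761624), Ppbp (ENSMUSG00000029372, chr5:90768518-90770063), Pf4, Cxcl3 (ENSMUSG00000029379, chr5:90786103-90789600), Cxcl15, Cxcl1 (ENSMUSG00000029380, chr5:90891241-90893115) and Cxcl2 (ENSMUSG00000058427, chr5:90903871-90905938). Cxcr2 (ENSMUSG00000026180) is on chromosome 1, at chr1:74153989-74161246 on the plus strand. All are protein-coding, and no other annotated gene overlaps any of the 6. Cxcl1, Cxcl2 and Cxcl3 are close relatives in sequence, and how the counting treated reads that align to more than 1 place is not given in the sources used here, so the split of reads among these 3 is uncertain.

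The promoters of the genes whose levels are compared most are shown because they differ in the letters just before the gene start. Each line gives the 120 bases before the annotated start (for Cxcl3 the window ends 2 bases earlier), 5′ to 3′ on the plus strand, from RefSeq's GRCm38.p6, and capitals mark matches to an NF-kB motif on either strand or to TATAAA. The NF-kB letters searched were GGG, any 2 bases, and TTTCC.
Cxcl1, chr5:90891121-90891240: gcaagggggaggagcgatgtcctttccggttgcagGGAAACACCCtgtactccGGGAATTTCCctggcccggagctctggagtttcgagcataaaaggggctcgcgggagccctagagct
Cxcl2, chr5:90903751-90903870: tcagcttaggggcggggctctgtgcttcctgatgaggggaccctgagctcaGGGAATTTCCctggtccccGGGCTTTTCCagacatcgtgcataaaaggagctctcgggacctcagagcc
Cxcl3, chr5:90785981-90786100: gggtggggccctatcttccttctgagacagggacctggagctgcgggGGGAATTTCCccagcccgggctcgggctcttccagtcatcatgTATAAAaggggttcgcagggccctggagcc
Ppbp, chr5:90768398-90768517: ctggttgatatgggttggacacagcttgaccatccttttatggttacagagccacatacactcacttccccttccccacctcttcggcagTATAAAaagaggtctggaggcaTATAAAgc
Cxcr2, chr1:74153869-74153988: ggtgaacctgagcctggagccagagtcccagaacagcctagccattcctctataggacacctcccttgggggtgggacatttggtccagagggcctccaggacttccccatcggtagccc

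The same stretch GGGAATTTCC stood at −67 from the gene start in Cxcl1, at −69 in Cxcl2 and at −75 in Cxcl3, counted to its first base. Cxcl1 held a further match at −85, on the minus strand, and Cxcl2 held GGGCTTTTCC at −50. Over the windows of up to 250 bases before the start, this NF-kB motif was found in 1.40% of 27025 promoters. No match to these letters lay in the windows of Ppbp, Cxcr2, Pf4 and Cxcl15. TATAAA, present in 13% of all promoters, was found in Cxcl3 at −32, in Ppbp at −30 and −8, and in Cxcl15 at −27. Other patterns were also searched on both strands. TGANTCA (AP-1, 6.87% of promoters) matched at −204 in Ppbp, whereas TTNNGNAAT (C/EBP, 10.3%) and the shorter NF-kB letters GGGNNTTCC (4.88%) had no match in the 7 windows. No window of Cxcl5 was analysed. A match is a run of letters, not a measured binding site.

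Total counts ran from 28756305 to 79836881 per library, and a gene listed at 0 in a library is only known to be below 3 counts, or between 0.0373 and 0.103 CPM, the count of a gene relative to the library's TMM-scaled total. This floor takes 1 count as 1 read and covers counting error only. The intervals of fold changes below come from the fit and include the spread between libraries. A deposited count need not be 1 read, since in protein-coding genes with 1 transcript the value 3 occurred 806 times, against 523 times for 2 and 378 times for 1. The true floor may therefore lie higher than the one given. The methods name a pair of mice as the source of the sheets, fewer than the 3 libraries of a group, so libraries of a group may share mice or pool them, and p-values measure only the spread between these libraries, which may be technical. The tissue label was checked against markers. Fibroblast markers summed to between 11033 and 26343 CPM in the 9 libraries, and keratinocyte markers to between 2463 and 15360 CPM. IMQ+XYF replicate 1 stood apart, with more keratinocyte marker transcripts (15360 CPM) than fibroblast ones (11752 CPM). The calls in the comparisons of IMQ+XYF are therefore also given without it, while levels, shares and ratios are given by library or by range.

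Cxcl1 was the most abundant ligand in all 9 libraries and had the smallest change under imiquimod. Its TMM-scaled CPM was 51.6, 175 and 140 in VAS+H2O, 91.7, 343 and 255 in IMQ+H2O, and 233, 116 and 271 in IMQ+XYF. The groups overlap, since IMQ+H2O replicate 1 was below 2 of the control libraries. The log2 fold change of IMQ+H2O against VAS+H2O was 0.91 (SE 0.56, 95% interval −0.36 to 2.19, edgeR adjusted p 0.383), which did not pass the test.

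Cxcl2, the closest neighbour of Cxcl1 in the cluster and a ligand made strongly by macrophages and neutrophils themselves, was at 5.68, 30.3 and 12.4 CPM in VAS+H2O. It was at 30.3, 65.3 and 108 CPM in IMQ+H2O and at 48.3, 22.7 and 84.9 CPM in IMQ+XYF. The lowest IMQ+H2O library and the highest control library nearly met. Its log2 fold change was 2.08 (SE 0.71, edgeR adjusted p 0.153), and Cxcl2 was not called. DESeq2's Wald test gave it an adjusted p of 0.0192.

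Cxcl3 was almost silent without imiquimod and rose in every library with it. Counts were 3, 3 and 33 in VAS+H2O, against 165, 556 and 1100 in IMQ+H2O and 656, 215 and 1183 in IMQ+XYF. On the CPM scale the control libraries held 0.0728, 0.0834 and 0.442 CPM. The IMQ+H2O libraries held 5.68, 13.5 and 21.5 CPM, and the IMQ+XYF libraries 8.16, 4.37 and 19.2 CPM. No imiquimod library came near the controls. Cxcl3 was called, at a log2 fold change of 5.89 (SE 0.89, 95% interval 3.87 to 7.91, edgeR adjusted p 0.0247). The size of this change rests on a control group in which 2 of 3 libraries had 3 counts.

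Cxcl5, a ligand known from epithelial cells, changed most. It had 6, 6 and 30 counts in VAS+H2O (0.146, 0.167 and 0.402 CPM). In IMQ+H2O it had 658, 6249 and 5184 counts (22.7, 152 and 101 CPM), and in IMQ+XYF 4982, 1452 and 10660 counts (62.0, 29.5 and 173 CPM). The lowest imiquimod library was far above the highest control library, while the imiquimod libraries themselves spread widely. The log2 fold change of IMQ+H2O against VAS+H2O was 8.44 (SE 1.09, 95% interval 5.97 to 10.9, edgeR adjusted p 0.0177). By size of rise Cxcl5 stood in place 9 of the 22430 genes tested.

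Ppbp, the platelet-stored ligand, was scarce throughout. It had 3, 29 and 9 counts in VAS+H2O (0.0728, 0.806 and 0.121 CPM), 24, 58 and 120 in IMQ+H2O (0.827, 1.41 and 2.34 CPM), and 137, 40 and 125 in IMQ+XYF (1.70, 0.814 and 2.03 CPM). VAS+H2O replicate 2 nearly reached the lowest imiquimod libraries. Its log2 fold change was 2.28 (SE 0.82, edgeR adjusted p 0.169), short of the threshold.

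Cxcr2, the receptor, was at 1.65, 2.72 and 0.375 CPM in VAS+H2O. It was at 7.20, 10.3 and 20.3 CPM in IMQ+H2O and at 23.4, 7.22 and 13.6 CPM in IMQ+XYF. All 6 imiquimod libraries were above all 3 controls. Its log2 fold change was 3.03 (SE 0.73, 95% interval 1.37 to 4.69), but the adjusted p by edgeR was 0.0787 and Cxcr2 was not called. DESeq2's Wald test gave 0.000233 for the same comparison. In such whole-tissue RNA, more cells that carry the receptor and more receptor RNA per cell cannot be told apart.

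**Figure D1:**
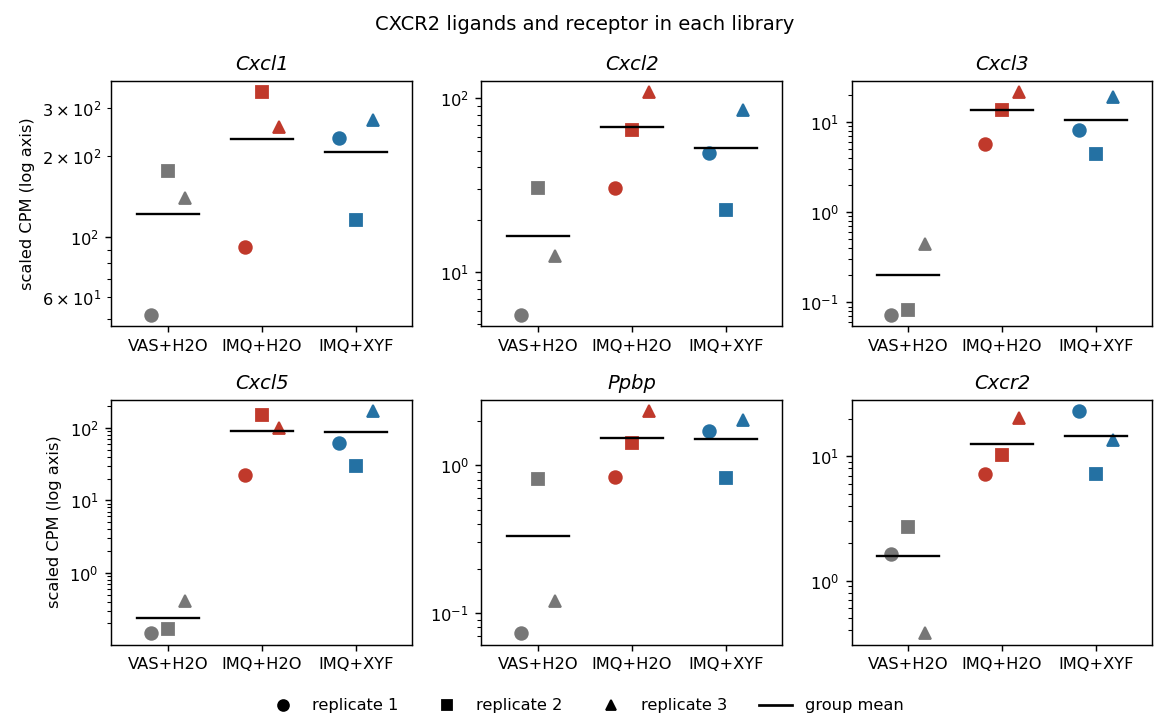
TMM-scaled CPM (log axis) of the 6 genes in the 9 libraries. Points are libraries, with a symbol for each replicate number, and bars are group means. Cxcl3 and Cxcl5 stay below 0.5 CPM in VAS+H2O and are between 4.37 and 173 CPM in the 6 libraries with imiquimod, while Cxcl1 overlaps between all groups.

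In IMQ+H2O against VAS+H2O, 2 of the 6 genes were called, both higher, against 0.646% of all 22430 tested genes called higher (0.994% in either direction). The groups did not overlap for 5 of the 6, all but Cxcl1, where 15.1% of all tested genes were higher without overlap. All 6 log2 fold changes were positive, with a median of 2.66 beside −0.02 for all tested genes. The calls of Cxcl3 and Cxcl5 were narrow. Both were lost when VAS+H2O replicate 1, 2 or 3 was left out, with adjusted p by edgeR of 0.0665, 0.0912 and 0.0765 for Cxcl3 and 0.0576, 0.0729 and 0.0765 for Cxcl5. They were also lost without IMQ+H2O replicate 2 (0.0792 and 0.0594) or replicate 3 (0.0917 and 0.0631), and were kept without IMQ+H2O replicate 1 (0.0324 and 0.0142). Over these fits their log2 fold changes stayed between 5.43 and 7.40 for Cxcl3 and between 7.87 and 9.18 for Cxcl5. Calls over all tested genes fell as well, from 223 to 90, 35 and 28 without VAS+H2O replicate 1, 2 and 3. They numbered 125, 28 and 25 without IMQ+H2O replicate 1, 2 and 3, so the lost calls were not particular to these genes.

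**Figure D2:**
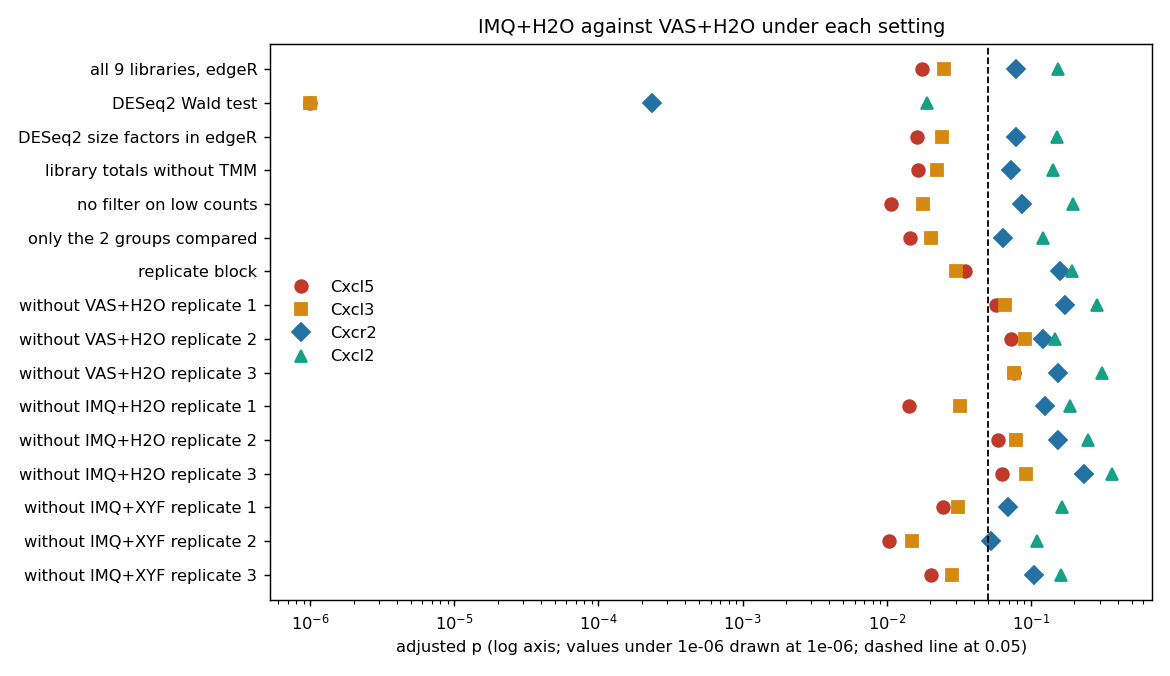
Adjusted p (log axis) of Cxcl5, Cxcl3, Cxcr2 and Cxcl2 for IMQ+H2O against VAS+H2O under each setting, with a dashed line at 0.05 and smaller values drawn at the left edge. Cxcl5 and Cxcl3 lie to the left of the line in every fit with all libraries and cross it when 1 of 5 libraries is left out, and Cxcr2 and Cxcl2 cross it to the left only in DESeq2.

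IMQ+XYF against VAS+H2O used the same control libraries, so it is no independent repeat of the first comparison. Here too 2 of the 6 genes were called, both higher, against 0.695% of all tested genes. For Cxcl3 the log2 fold change was 5.53 (SE 0.88, edgeR adjusted p 0.0292), and for Cxcl5 it was 8.38 (SE 1.09, adjusted p 0.0173). Cxcr2 was at 3.25 (adjusted p 0.0630), Ppbp at 2.26 (0.184), Cxcl2 at 1.69 (0.243) and Cxcl1 at 0.76 (0.537), and none of these 4 passed. The groups did not overlap for 4 of 6, all but Cxcl1 and Cxcl2, beside 11.7% of tested genes that were higher without overlap. Without IMQ+XYF replicate 1, the library rich in keratinocyte transcripts, no member was called, and the adjusted p was 0.0574 for Cxcl5 and 0.0717 for Cxcl3. In that fit 25 of all 22976 tested genes were called, against 270 genes with all libraries. Without IMQ+XYF replicate 2, Cxcr2 was called as well (adjusted p 0.0318), in a fit where 592 genes were called. Leaving out any 1 control library ended both calls of Cxcl3 and Cxcl5 (adjusted p 0.0704 to 0.109 for Cxcl3, 0.0529 to 0.0853 for Cxcl5). Over all tested genes 115, 12 and 24 were called without VAS+H2O replicate 1, 2 and 3. The call of Cxcl3 also ended without IMQ+XYF replicate 3 (0.0747) or IMQ+H2O replicate 2 (0.0565), a library that enters only through the shared spread, and with the IMQ+H2O libraries left out altogether (0.0654). In these fits 38, 93 and 33 genes were called, in this order.

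The effect of XYF was read from IMQ+XYF against IMQ+H2O. None of the 6 genes was called, in a comparison where 0.00892% of all tested genes (2 of 22430) were called in either direction. Cxcl1 had a log2 fold change of −0.15 (95% interval −1.42 to 1.11) and Cxcl2 one of −0.39 (−1.93 to 1.15). Cxcl3 was at −0.36 (−1.90 to 1.19), Cxcl5 at −0.06 (−1.71 to 1.60) and Ppbp at −0.02 (−1.70 to 1.66). Cxcr2 was at 0.22 (−1.28 to 1.72). Adjusted p-values by edgeR ran from 0.843 to 0.995, the lowest unadjusted p of the 6 was 0.582, and DESeq2 called none of them either. The libraries of both groups overlapped for all 6 genes, whereas 18% of all tested genes did not overlap. Over the 6 genes the intervals of the fold reach from 0.263 (Cxcl2) to 3.30 (Cxcr2) times the IMQ+H2O level, and each gene has its own. That of Cxcl1 was 0.374 to 2.16. Changes within a gene's own interval could not be seen with 3 libraries a group. The sign of the difference was not stable either, since leaving out single libraries turned it for each of the 6 genes. Without IMQ+XYF replicate 1, Cxcr2 was at −0.28, Cxcl5 at 0.14, Cxcl1 at −0.25, Cxcl2 at −0.34, Cxcl3 at −0.20 and Ppbp at −0.11, and none was called. In that fit 1 of all 22976 tested genes was called.

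**Figure D3:**
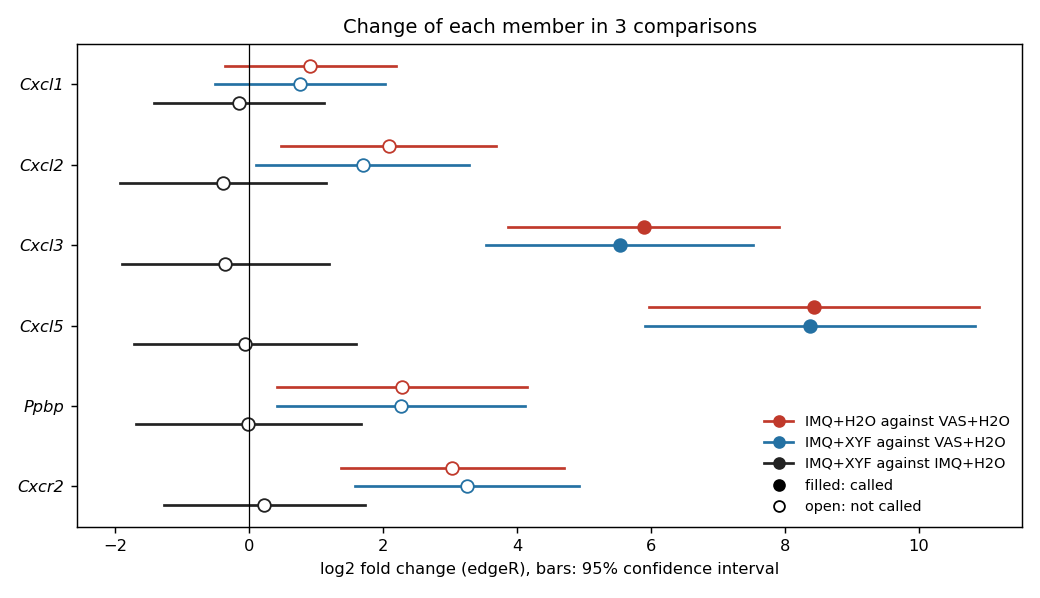
Log2 fold changes of the 6 genes in the 3 comparisons (edgeR), with bars for the 95% confidence interval and filled points for called genes. The comparisons with vaseline share their control libraries and place Cxcl5 and Cxcl3 farthest to the right, and every interval of IMQ+XYF against IMQ+H2O spans 0.

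The spread within the imiquimod groups was shared by the 6 genes. IMQ+H2O replicate 1 and IMQ+XYF replicate 2 held the 2 lowest places among the 6 imiquimod libraries for every member. Within IMQ+H2O the highest library exceeded the lowest by 3.74 times for Cxcl1, 6.69 times for Cxcl5 and 2.82 times for Cxcr2. Within IMQ+XYF it did so by 2.34 times, 5.86 times and 3.24 times. The same 2 libraries were also lowest in the summed CPM of the neutrophil markers (480 and 499 CPM, against 600 to 1078 CPM in the other 4). In IMQ+H2O this sum came largely from Il1r2, S100a9 and S100a8 (225, 168 and 126 CPM on average), so it need not read neutrophil content. Total counts of the same 2 libraries were 28756305 and 48495685, against 39820761 to 79836881 in the other 4. The parts of sequencing depth and of neutrophil content in the ligand levels were not tested.

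Levels of different genes were compared as scaled CPM per kilobase of transcript. In VAS+H2O, Cxcl1 stood at 128 ± 66.7 (SD, n = 3) and Cxcl2 at 14.5 ± 11.5, followed by Cxcr2 (0.520 ± 0.386), Ppbp (0.308 ± 0.379), Cxcl3 (0.196 ± 0.207) and Cxcl5 (0.151 ± 0.0904). The last 4 did not differ beyond their spread. In IMQ+H2O the order was Cxcl1 (241 ± 134), Cxcl2 (61.3 ± 35.2), Cxcl5 (58.3 ± 41.3), Cxcl3 (13.3 ± 7.76), Cxcr2 (4.14 ± 2.25) and Ppbp (1.41 ± 0.705). Cxcl5 thus moved from the last place to the level of Cxcl2, from which it did not differ beyond the spread. In IMQ+XYF the order of the first places was Cxcl1 (217 ± 84.8), Cxcl5 (56.0 ± 47.8) and Cxcl2 (46.9 ± 28.2), where Cxcl5 and Cxcl2 did not differ beyond the spread and Cxcl2 was the higher in replicates 1 and 2.

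The shares of Cxcl1, Cxcl3 and Cxcl5 in the ligand pool differed between VAS+H2O and both imiquimod groups without overlap, while the size of the pool overlapped. Summed over the 5 ligands, the level per kilobase was 59.5, 212 and 159 in VAS+H2O, 144, 529 and 453 in IMQ+H2O, and 337, 166 and 492 in IMQ+XYF, so the groups overlap. The sum of the 4 ligands other than Cxcl1 did not overlap, at 5.35, 28.2 and 12.0 in VAS+H2O against 48.1 to 185 in IMQ+H2O and 44.2 to 207 in IMQ+XYF. Cxcl1 made up 90.04% ± 3.0 of the ligand sum in VAS+H2O, 64.6% ± 4.78 in IMQ+H2O and 67.9% ± 8.71 in IMQ+XYF (SD, n = 3). Cxcl5 made up 0.122% ± 0.0625, 14.1% ± 4.11 and 15.1% ± 6.27. Cxcl3 went from 0.144% to 3.68% and 2.94%, and Ppbp was at most 0.53% in any library. These shares are relative, so a smaller share of Cxcl1 is no fall of Cxcl1.

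**Figure D4:**
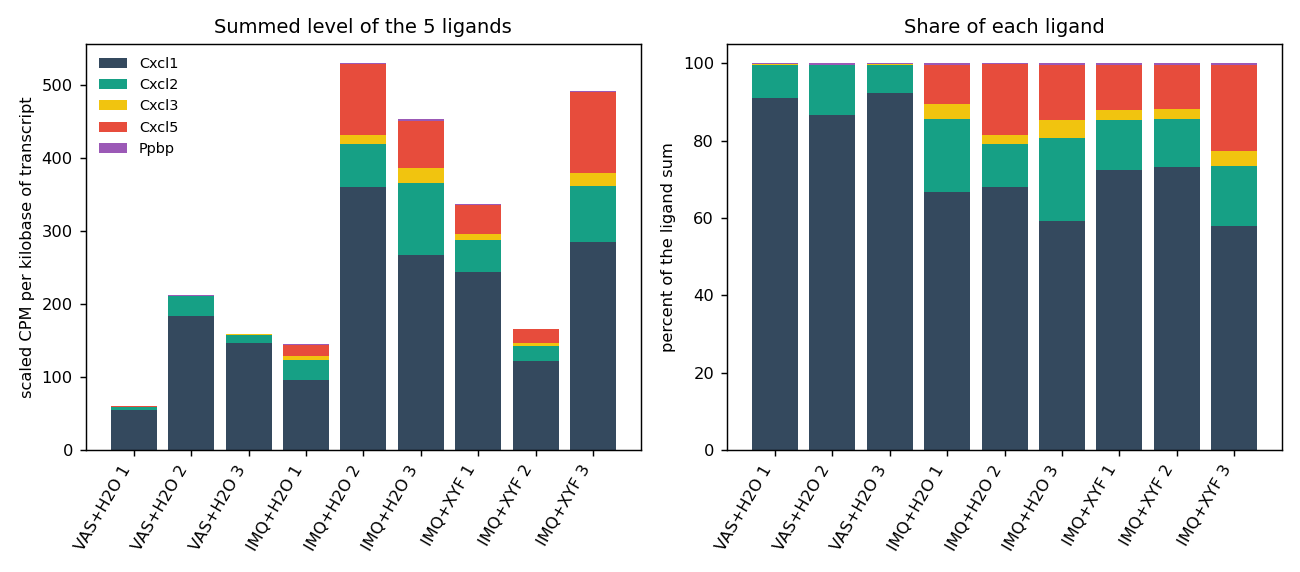
Left, stacked level of the 5 ligands (scaled CPM per kilobase of transcript) in each library. Right, each ligand's percent of that sum, where Cxcl1 is between 86.7% and 92.4% in VAS+H2O and between 57.8% and 73.3% in the libraries with imiquimod.

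Ratios within a library, which do not depend on its scaling, were compared with two-sided exact permutation tests over libraries. With 3 against 3 the smallest p such a test can give is 0.10, so none of them could pass 0.05. The ratio of Cxcl5 to Cxcl1 was 0.000576 to 0.00174 in VAS+H2O and 0.150 to 0.268 in IMQ+H2O, 7.47 higher on the log2 scale (exact p 0.10, adjusted over 12 tests 0.20). The ratio of Cxcl3 to Cxcl1 was 5.52 higher and that of Cxcl2 to Cxcl1 1.33 higher, each without overlap and with the same p. The ratio of Cxcl5 to Cxcl3 was also higher, at 0.586 to 1.29 in VAS+H2O and 2.57 to 7.25 in IMQ+H2O (1.95 on the log2 scale, exact p 0.10). In VAS+H2O the ratios with Cxcl5 or Cxcl3 rest on 6, 6 and 30 counts of Cxcl5 and 3, 3 and 33 of Cxcl3. Their control values are therefore near the floor and poorly known, that of Cxcl5 to Cxcl3 most of all. Between IMQ+XYF and IMQ+H2O these 4 ratios overlapped, with exact p from 0.5 to 1 and differences between −0.38 and 0.38 on the log2 scale.

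Cxcr2 was set against Csf3r, the receptor of the granulocyte growth factor, which is another surface receptor of neutrophils. This pair was chosen after its values were seen. The ratio per kilobase of Cxcr2 to Csf3r was 0.777, 0.737 and 0.121 in VAS+H2O, 0.379, 0.352 and 0.371 in IMQ+H2O and 1.06, 0.563 and 0.420 in IMQ+XYF. The IMQ+H2O values were nearly equal, and those of IMQ+XYF were all higher (0.78 on the log2 scale). Of all single genes tested, 9.22% were higher without overlap in this comparison. Because of how the pair was chosen, its permutation result (exact p 0.10, adjusted 0.20) is no test of a difference. The highest of them was in the library rich in keratinocyte transcripts.

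The other genes of the cluster and its surroundings had few calls. Pf4, a platelet chemokine that lies between Ppbp and Cxcl3 and does not use CXCR2, was at 35.4, 55.7 and 38.4 CPM in VAS+H2O, 26.6, 50.5 and 41.6 in IMQ+H2O and 30.8, 23.9 and 44.6 in IMQ+XYF. Its log2 fold change of IMQ+H2O against VAS+H2O was −0.12 (95% interval −0.80 to 0.55, edgeR adjusted p 0.841). The ratio of Ppbp to Pf4 per kilobase was 0.00112 to 0.00786 in VAS+H2O and 0.0151 to 0.0306 in IMQ+H2O (3.01 on the log2 scale, exact p 0.10). Its control values rest on 3, 29 and 9 counts of Ppbp. Cxcl15, a lung chemokine gene between Cxcl3 and Cxcl1, had 0 counts in all 9 libraries. On either side, Rassf6 was at −0.41 (adjusted p 0.409) and Mthfd2l at 0.04 (0.900). Farther on, Epgn, which encodes an epidermal growth factor receptor ligand, was called higher in IMQ+H2O (4.29, SE 0.69, edgeR adjusted p 0.0301), and its neighbour Ereg, of the same growth factor family, was at −0.11 (0.924).

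**Figure D5:**
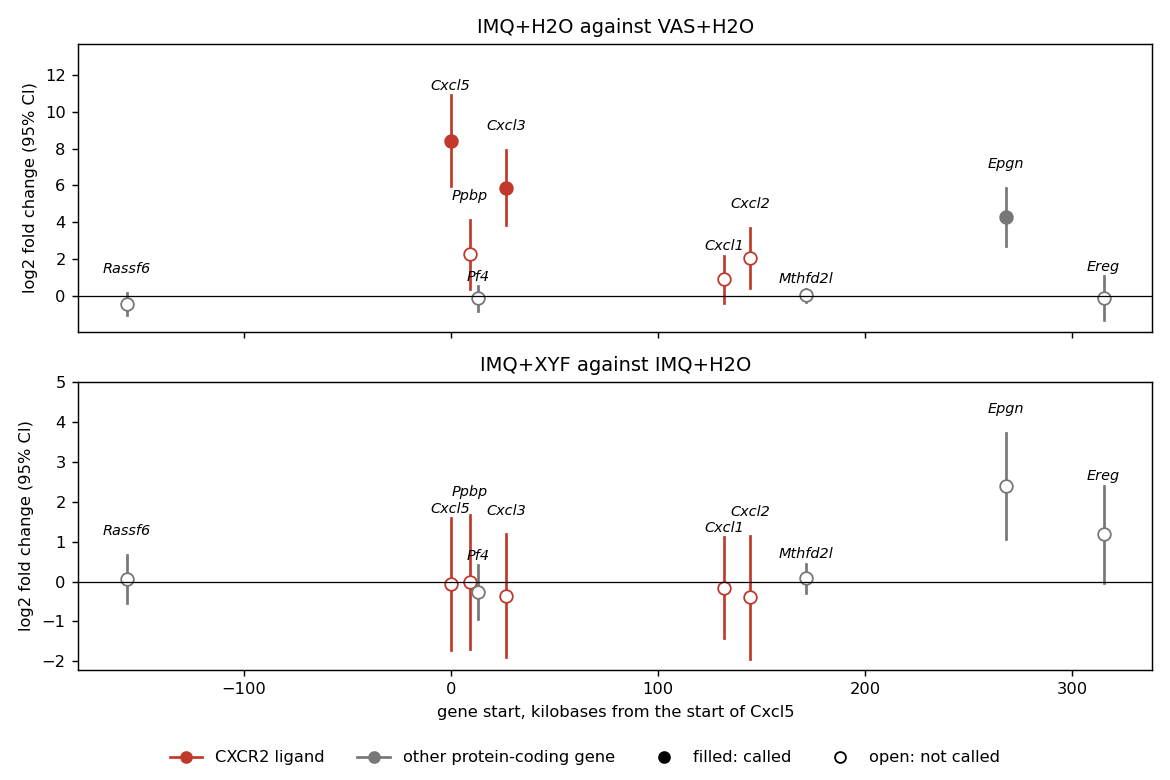
Log2 fold changes with 95% confidence intervals of the tested protein-coding genes of the region, by distance of the gene start from that of Cxcl5 in kilobases, for IMQ+H2O against VAS+H2O (upper) and IMQ+XYF against IMQ+H2O (lower). Red marks CXCR2 ligands and filled points called genes. In the upper panel Cxcl5, Cxcl3 and Epgn are filled, and Pf4 lies near 0 between ligands that lie higher.

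Cxcr1, the gene next to Cxcr2 and its closest relative, had 0 counts in the 3 control libraries, 3, 3 and 9 in IMQ+H2O and 21, 9 and 6 in IMQ+XYF, and it did not pass the filter. Ackr1, a decoy receptor on venules that binds many of these chemokines without signalling, was at 38.9, 48.9 and 59.9 CPM in VAS+H2O and 74.6, 70.3 and 99.6 CPM in IMQ+H2O. In IMQ+XYF it was at 52.0, 2.58 and 77.5 CPM, so replicate 2 was far below the rest, with 127 counts. In that library the endothelial markers, Ackr1 included, also had their lowest sum of the 9 (454 CPM, against 602 to 1365 CPM). Of the 6 genes in the list of neighbours and scavenging receptors, 4 were tested and edgeR called none in any comparison, with a median log2 fold change of 0.30 in IMQ+H2O against VAS+H2O (1 gene at an unadjusted p under 0.05 and 1 called by DESeq2). Over all 22430 tested genes, 4694 were at an unadjusted p under 0.05 in this comparison.

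Downstream of the receptor, 26 genes of CXCR2 signalling were followed, from G protein subunits, arrestins and receptor kinases to kinases, Rac proteins and integrins. In IMQ+H2O against VAS+H2O, 5 were called higher and none lower, beside 0.646% of all tested genes called higher. The median log2 fold change was 0.32, with 21 genes positive and 5 negative. Rac2, the Rac protein of blood cells, rose by 1.78 (SE 0.19, edgeR adjusted p 0.0114). Fgr, a kinase of myeloid cells, rose by 1.52, and Itgam and Itgb2, which together form the integrin Mac-1, rose by 2.55 and 1.49. For these rises too, more cells and more RNA per cell cannot be told apart. Rac1 went the other way, at −1.67 (edgeR adjusted p 0.0952, not called). It was at 1.46 in IMQ+XYF against IMQ+H2O (edgeR adjusted p 0.364). In IMQ+XYF against VAS+H2O, with the controls shared, 5 were called higher again, beside 0.695% of all tested genes. Among them were Rac2 (1.53), Fgr (1.14), Itgam (2.85) and Itgb2 (1.18). Without IMQ+XYF replicate 1 none of the 26 was called there, in a fit that called 25 of all 22976 tested genes. edgeR called none in IMQ+XYF against IMQ+H2O, where the median was −0.23 (5 at an unadjusted p under 0.05, 1 called by DESeq2). Over all 22430 tested genes, 2633 were at an unadjusted p under 0.05 there.

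Upstream, 26 genes that induce the ligands were listed, of which 25 were tested. edgeR called none in the 3 comparisons. The median log2 fold change was 0.25 for IMQ+H2O against VAS+H2O, 0.03 for IMQ+XYF against IMQ+H2O and 0.23 for IMQ+XYF against VAS+H2O, an order kept below. At an unadjusted p under 0.05 there were 6, 2 and 9 genes, and DESeq2 called 1, 0 and 1. Over all 22430 tested genes, 4694, 2633 and 4112 were at an unadjusted p under 0.05, against which all such counts here are to be read. Il17a, which encodes the cytokine IL-17A, had 0 counts in the 3 control libraries, 0, 14 and 5 in IMQ+H2O and 18, 11 and 7 in IMQ+XYF. Il17f was at 0.315 to 0.917 CPM in VAS+H2O, 0.379 to 0.970 in IMQ+H2O and 0.398 to 0.976 in IMQ+XYF. Il1b, the gene of interleukin-1 beta, was at 10.9, 76.4 and 32.1 CPM in VAS+H2O, 62.1, 92.0 and 195 in IMQ+H2O and 91.5, 49.0 and 125 in IMQ+XYF (1.55 for IMQ+H2O against VAS+H2O, edgeR adjusted p 0.240). Tnf was at −0.25 (adjusted p 0.848), and its groups overlapped. Among 10 genes for decay and stability of such messages edgeR and DESeq2 called none, 2, 0 and 3 were at an unadjusted p under 0.05, and the medians were −0.19, 0.10 and −0.10.

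Neutrophils are the cells best known for Cxcr2, and their markers were followed beside it. Of 20 markers 16 were tested, and 9 were called higher in IMQ+H2O against VAS+H2O, none lower, with a median of 4.54. Of all tested genes 0.646% were called higher there. S100a8 and S100a9, which form the abundant cytosolic protein calprotectin, rose by 5.22 and 5.2, and Fpr1, a receptor for bacterial peptides, rose by 5.81 (edgeR adjusted p 0.0247 for both S100 genes, 0.000256 for Fpr1). Stfa2l1, of the stefin family, had 0 counts in the controls and 3.79 CPM on average in IMQ+H2O. In IMQ+XYF against VAS+H2O 8 were called higher (0.695% of all tested genes were), and in IMQ+XYF against IMQ+H2O none by edgeR or DESeq2 (3 at an unadjusted p under 0.05), with medians of 3.74 and −0.49. The summed neutrophil markers were at 235 to 286 CPM in VAS+H2O, 480 to 1078 in IMQ+H2O and 499 to 839 in IMQ+XYF. In VAS+H2O most of this sum came from Il1r2 and G0s2, at 128 and 102 CPM on average, so there it mainly reads these genes. In IMQ+H2O the largest parts were Il1r2, S100a9 and S100a8, at 225, 168 and 126 CPM on average. G0s2 and the scarce Camp had negative log2 fold changes in IMQ+H2O against VAS+H2O (−0.63 and −1.01), neither called. Ly6g had 0 counts in 4 of 9 libraries and did not pass the filter. Without IMQ+XYF replicate 1, 2 of the 16 were called in IMQ+XYF against VAS+H2O, Fpr1 and Fpr2. That fit called 25 of all 22976 tested genes. Of the genes of granule proteins, Mmp8 was called (5.14, edgeR adjusted p 0.0453) and Elane and Ltf were at 0 counts in 6 of 9 libraries.

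Platelet and megakaryocyte markers were followed beside Ppbp. Of 14 markers 10 were tested and edgeR called none in any comparison (2, 1 and 0 at an unadjusted p under 0.05, and 1, 0 and 0 called by DESeq2), with medians of 0.14, −0.44 and −0.22. Their sum was 149 to 495 CPM in VAS+H2O, 242 to 465 in IMQ+H2O and 136 to 324 in IMQ+XYF, and the defining gene Gp6 was at 0 counts in 8 libraries.

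Markers of further cell types were followed as well. Of the monocyte and macrophage, mast cell, dermal fibroblast, endothelium, skeletal muscle and erythrocyte markers edgeR called none in the 3 comparisons, and for IMQ+H2O against VAS+H2O 5, 1, 3, 3, 0 and 1 of them were at an unadjusted p under 0.05, with medians of 0.54, 0.25, −0.39, 0.68, 0.19 and −1.10 (DESeq2 called 3, 1, 0, 0, 0 and 0). Of 7 cartilage markers tested, Col2a1 and Matn3 were called in IMQ+H2O against VAS+H2O, where 0.348% of all tested genes were called lower, and fell by 2.70 and 2.48. All 7 were lower without overlap there, beside 16.5% of all tested genes, at an unadjusted p under 0.05 and called by DESeq2. In IMQ+XYF against IMQ+H2O 5 were higher without overlap, beside 9.22% of all tested genes, with none called by edgeR and 5 by DESeq2. The cartilage markers summed to 986 to 1755 CPM in VAS+H2O, 285 to 447 CPM in IMQ+H2O and 547 to 1727 CPM in IMQ+XYF. Under imiquimod alone, 7 of 8 endothelial markers were higher than in VAS+H2O without overlap, beside 15.1% of all tested genes. In IMQ+XYF against VAS+H2O the medians of endothelial and skeletal muscle markers were −0.02 and −1.53. In IMQ+XYF against IMQ+H2O, 6 of 8 endothelial markers and 5 of 6 skeletal muscle markers were lower without overlap, beside 8.74% of all tested genes, with medians of −0.64 and −1.71. All 10 monocyte and macrophage markers and all 8 mast cell markers were negative there too. Their medians were −0.51 and −0.62, with 3 of each list lower without overlap. Muscle markers summed to 572 to 1138 CPM in IMQ+H2O and 70.5 to 405 CPM in IMQ+XYF. The part of these tissues and cells in the levels of the CXCR2 ligands was not tested.

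Keratinocyte markers differed between the imiquimod groups. They summed to 3398 to 6078 CPM in VAS+H2O, 2463 to 3778 in IMQ+H2O and 15360, 4195 and 7775 in IMQ+XYF, whose libraries were all above those of IMQ+H2O. Of the 10 markers edgeR called none in IMQ+XYF against IMQ+H2O (median 1.46, 9 at an unadjusted p under 0.05, 3 called by DESeq2). Krt6b and Krt16, keratins of stressed epidermis, were called in IMQ+XYF against VAS+H2O (5.03 and 4.59), beside 0.695% of all tested genes called higher. Without IMQ+XYF replicate 1 neither was called (edgeR adjusted p 0.0755 for both), in a fit that called 25 of all 22976 tested genes. Keratinocytes can make Cxcl1 and Cxcl5, and their part in the ligand levels of IMQ+XYF was not tested. Immediate early and heat shock genes, a list added after the data were examined, summed to 13221 to 18037 CPM in VAS+H2O, 8028 to 10202 in IMQ+H2O and 11369 to 14485 in IMQ+XYF. Of these 11 genes edgeR called none in the 3 comparisons (8, 8 and 4 at an unadjusted p under 0.05, and 2, 0 and 0 called by DESeq2). In IMQ+H2O 8 were lower than in VAS+H2O without overlap, beside 16.5% of all tested genes, and in IMQ+XYF 8 were higher than in IMQ+H2O without overlap, beside 9.22%. Their part was not tested.

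Profiles over the 9 libraries were compared after each gene was centred on its mean log2 CPM, and likeness was measured by the root-mean-square difference among 17103 named genes. Nearest to Cxcl1 were Rab44 (0.24), the monocyte chemokine gene Ccl7 (0.25) and Prtn3 (0.27). Nearest to Cxcl2 were Ccl4 (0.22), Il1b (0.28) and Ccl3 (0.29), and nearest to Ppbp were Ccl4 (0.33), Gzmb (0.42) and Ccl3 (0.43). Cxcl3 was most like Trem1 (0.63), Mrgpra2b (0.76) and Il19 (0.82), and Cxcl5 most like Il19 (0.96), the acute-phase gene Saa3 (0.99) and Fgf23 (1.27). Cxcr2 was most like Mcemp1 (0.65), Fpr2 (0.68) and Klk6 (0.69). Among the members themselves Cxcl2 and Ppbp were closest (0.45), then Cxcl1 and Cxcl2 (0.69), and Cxcl3 and Cxcl5 were closer to each other (1.19) than to any other member. These are descriptions over 9 libraries that share 3 groups, and they carry no test.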

How the data were processed

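Whole-number counts per Ensembl gene were deposited by the authors for 9 dermal libraries. Per the study's methods, reads were aligned with STAR (2.5 in the submitters' processing notes) to GRCm38 with the Ensembl annotation and transcripts were assembled with StringTie. The notes also name FastQC, Cuffnorm and DESeq 1.22.1. The counting tool, its use of strand and its treatment of reads with several alignments are not given in the sources used here. Only the counts were tested, with edgeR 4.0.16 in R 4.3.3. After filterByExpr and TMM scaling, 22430 genes entered 1 quasi-likelihood fit of all 9 libraries with a coefficient per group (common biological coefficient of variation 0.296). Genes were called at a Benjamini-Hochberg adjusted p of 0.05 or lower, over all tested genes, and an absolute log2 fold change of 1 or higher. Standard errors are the absolute log2 fold change over the square root of F, and intervals cover 95%. Replicate libraries differed by more than counting error, and none was a repeat of another.

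Levels per kilobase used the longest principal protein-coding transcript of GENCODE vM21. Within-library ratios were compared by exact permutation tests. Likeness used log2 CPM with a prior count of 2. Alternatives were DESeq2 1.42.0, its size factors in edgeR, library totals, no filter, only the groups compared, a replicate block and leaving out each library. The members, gene lists and tests were chosen with earlier results of these data known. All 6 members are described. From the other lists, called genes were named, at most the 4 with the largest change per list, beside Pf4, Cxcl15, Cxcr1, Ackr1, Il17a, Il17f, Il1b and Tnf, and for each member the 3 genes of most similar profile. Elane, Ltf, Mmp8, Fpr2, Gp6, Csf3r, Itgb2, Il1r2, G0s2, Camp, Ly6g, Rac1, and the genes next to the cluster, were named outside this rule, after their values were seen. Single listed genes that the rule would name are not reported here. One listed symbol was matched by another name. RefSeq held promoter windows for all members but Cxcl5, which was not analysed there.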

Additional observations from a re-analysis of the deposited data

How the results depend on the processing

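The calls of single genes depended on the setting, whereas no member was called for IMQ+XYF against IMQ+H2O under any of the 15 alternatives. For IMQ+H2O against VAS+H2O, 2 members and 223 genes were called with all libraries in edgeR. DESeq2 called 4 members (Cxcl2 and Cxcr2 in addition) and 940 genes, a fit of only the groups compared called 496 genes, and leaving out libraries gave 0 to 2 members and 25 to 455 genes. For IMQ+XYF against VAS+H2O the counts were 2 members and 270 genes. DESeq2 called 3 members (Cxcr2 in addition, adjusted p 4.11e-05) and 705 genes, library totals also added Cxcr2 (0.0499), only the groups compared gave 1 member and 33 genes, and leaving out libraries gave 0 to 3 members and 12 to 592 genes. For IMQ+XYF against IMQ+H2O, 2 genes were called, with 219 in DESeq2, 1 with library totals, 1 with only the groups compared and 0 to 4 when libraries were left out. The cause of these differences was not tested.

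Replicate numbers are shared by the groups but did not pair the libraries, since 1 of 9 same-number pairs had a correlation of deviations over 0.1 (−0.18 to 0.12) and 1 of 9 libraries correlated best with its own number. With the replicate block, 86, 0 and 54 genes were called in the effect of imiquimod, the effect of XYF under imiquimod and the comparison of IMQ+XYF with vaseline, in this order, and the members called stayed Cxcl3 and Cxcl5 in the first and last.

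Of 270 recomputed member values, 226 kept direction and side of the threshold, 21 lost a call, 5 gained one and 18 turned sign, all of the last for IMQ+XYF against IMQ+H2O and none called. With the block the log2 fold changes were 0.11 for Cxcl1, 0.0124 for Cxcl5 and 0.16 for Ppbp, and Ppbp was at 0.00055 with library totals and at 0.0075 without the filter. Leaving out libraries gave −0.53 to 0.25 for Cxcl1, −0.94 to 0.14 for Cxcl2, −1.11 to 0.17 for Cxcl3, −1.002 to 0.51 for Cxcl5, −0.30 to 0.46 for Ppbp and −0.28 to 0.78 for Cxcr2. A fit that leaves out a library keeps 2 in its group and pools the spread.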
